A study of Mus musculus with 39 samples.

Results

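The genes described here are Ly6g, Ly6c1, Ly6c2, Ly6a, Ly6e and Ly6d, which encode surface antigens of the mouse Ly6 family. They were picked by symbol from the 53465 genes of a table of TPM, a length-corrected share of transcripts scaled to sum to 1000000 in each library. All 6 passed the filter applied before testing, which kept 18466 genes with 3 or more of the 39 libraries at a TPM of 1 or above. The study is about myeloid-derived suppressor cells (MDSCs), cells of an immature myeloid type that can dampen T cell responses, of a granulocytic (G) and a monocytic (M) kind. Polyadenylated RNA was sequenced from 13 groups of 3 libraries each. C57BL/6 mice labelled as newborn, at postnatal day 7, gave all single cells of the bone marrow, a G sort and an M sort. Spleens of mice labelled BALB/c with immune deficiency gave a G, an M and a combined (G+M) sort. APCmin/+ mice carry a mutant Apc allele and develop tumours of the gut, and they gave the same 3 sorts from the spleen, and these 3 sorts and all single cells from the intestine. The antibodies used for sorting, the cause of the immune deficiency, the strain background of the APCmin/+ mice, the stretch of intestine and the ages of the BALB/c and APCmin/+ mice are not stated in the labels used here, and no group is labelled with a treatment.

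Ly6 proteins are small, cysteine-rich proteins that a glycolipid anchor holds on the outer face of the cell membrane. In the mouse, CD11b+ cells with much Ly6G and little Ly6C are conventionally called granulocytic MDSCs, and CD11b+ cells with much Ly6C and no Ly6G are called monocytic MDSCs. Ly6G is an antigen of neutrophils. The Ly6C antigen is the product of a pair of near-identical genes, Ly6c1 and Ly6c2, and marks inflammatory monocytes, although some neutrophils, T cells, plasma cells and endothelial cells also carry it. Ly6a encodes Sca-1, used to gate blood stem cells and induced by interferon, Ly6e encodes a widely made antigen that interferon also induces, and Ly6d marks early commitment to the B lineage. Inbred strains carry different versions of the Ly6 locus, and the amount of Sca-1 on cells is known to differ between them.

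The 6 genes lie together within 397071 bases of chromosome 15 (coordinates of GRCm38, GENCODE vM21). Ly6d (ENSMUSG00000034634) is at chr15:74762056-74763620 on the minus strand and Ly6e (ENSMUSG00000022587) at chr15:74955051-74959905 on the plus strand. Ly6a (ENSMUSG00000075602) is at chr15:74994877-74998031, Ly6c1 (ENSMUSG00000079018) at chr15:75044018-75048830 and Ly6c2 (ENSMUSG00000022584) at chr15:75108158-75111970, all on the minus strand. Ly6g (ENSMUSG00000022582) is at chr15:75155240-75159126 on the plus strand. Aligned coding sequences of Ly6c1 and Ly6c2 were 97.7% identical, with 9 of 396 bases different. Ly6g shared 78.3% with Ly6c1 and 83.2% with Ly6a, and no pair that included Ly6e or Ly6d exceeded 50.0%.

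The likeness of Ly6c1 and Ly6c2 decides what a single read of 75 bases can tell. The first 75 coding bases hold 6 of the differences, shown in capitals, and a read from there names its gene:
Ly6c1 coding bases 1 to 75: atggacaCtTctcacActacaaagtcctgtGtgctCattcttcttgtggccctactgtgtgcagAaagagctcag
Ly6c2 coding bases 1 to 75: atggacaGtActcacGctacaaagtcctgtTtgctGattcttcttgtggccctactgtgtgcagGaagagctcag
Bases 66 to 140 have 0 differences, so a read from this stretch belongs to both genes:
Ly6c1 and Ly6c2 coding bases 66 to 140: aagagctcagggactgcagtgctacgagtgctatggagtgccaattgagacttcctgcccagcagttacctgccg
Of the 322 windows of 75 bases in the coding sequence, 114 were found in the other gene as well. Over 1 whole reference transcript per gene, 23.25% of the windows of Ly6c1 and 21.93% of those of Ly6c2 occurred in another gene, against 0.81% for Ly6a and 0 windows for Ly6g, Ly6e and Ly6d. Over all annotated transcripts of each gene the shares were 19.05% for Ly6c1, 9.46% for Ly6c2 and 6.33% for Ly6a. Of the 83 shared windows of Ly6a, 77 occurred in Ly6c1. RSEM, the quantifier named in the processing notes, divides shared reads by a statistical model, so the split between Ly6c1 and Ly6c2 is an estimate, and their sum is given beside it. All reads were aligned to the mm10 reference, which is a C57BL/6J genome. Whether BALB/c reads were misassigned for that reason was not tested.

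The promoters of Ly6g, Ly6c1 and Ly6c2 are shown because Ly6c1 and Ly6c2 had unlike levels in marrow and APCmin/+ spleen, despite near-identical coding parts. In the 9 BALB/c libraries their levels were alike, with Ly6c1 per Ly6c2 between 0.818 and 1.05. The sequences are of the reference genome, BALB/c promoters were not examined, and a part of the promoters in the levels was not tested. Each line runs from 250 bases before the RefSeq start site to base -22 (GRCm38.p6, RefSeq promoters, found for 3 of the 6 genes), and capitals mark GAGGAAGT, a motif of the myeloid factor PU.1:
Ly6g, chr15:75155011-75155239, plus strand: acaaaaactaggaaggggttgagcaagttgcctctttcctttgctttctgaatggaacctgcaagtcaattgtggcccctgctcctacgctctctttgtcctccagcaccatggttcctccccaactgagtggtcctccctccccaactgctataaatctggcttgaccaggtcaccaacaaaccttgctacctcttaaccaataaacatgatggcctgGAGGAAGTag
Ly6c1, chr15:75048859-75049087, minus strand: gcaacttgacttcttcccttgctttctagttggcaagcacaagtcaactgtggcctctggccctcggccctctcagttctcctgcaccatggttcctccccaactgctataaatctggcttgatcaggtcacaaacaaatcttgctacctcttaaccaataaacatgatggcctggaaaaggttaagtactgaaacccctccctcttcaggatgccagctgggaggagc
Ly6c2, chr15:75111993-75112221, minus strand: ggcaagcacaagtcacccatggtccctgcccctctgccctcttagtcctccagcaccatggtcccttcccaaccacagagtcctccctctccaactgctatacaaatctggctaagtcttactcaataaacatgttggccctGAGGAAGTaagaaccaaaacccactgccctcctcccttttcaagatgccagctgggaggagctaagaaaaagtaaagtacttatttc
Both strands of the 250 bases before each start were searched. GAGGAAGT stood at base -31 of Ly6g and at base -108 of Ly6c2, and was not in the window of Ly6c1. The same letters occur in 2.44% of 32851 promoter windows of this length. TTNCNNAA, a motif of C/EBP factors, occurs in 36.85% of them, and was found at bases -206 and -232 of Ly6g and at base -132 of Ly6c2, again not in Ly6c1, with no overlap between matches. An interferon response element (GAAA, any 2 bases, GAAA), present in 2.98% of promoters, was in none of the 3 windows. Such matches are letters only, and binding was not measured.

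The libraries held other cells beside those named by the sorts. Neutrophil genes (16 listed) summed to between 134389 and 157815 TPM in the marrow G and M sorts, to between 5920 and 141932 in the splenic sorts, and to between 43.4 and 807 in the intestine. The intestinal libraries were instead rich in transcripts of epithelium, with Epcam, an adhesion protein of epithelial cells, at a mean of 832 to 965 TPM in the 3 intestinal sorts and 861 in all cells, and Itgam, which encodes CD11b, at 6.41 to 12.7 in the sorts against 179 or more in every sort of marrow and spleen. Spleens labelled as immune-deficient had B cell transcripts, with Cd79a, part of the B cell receptor, at a mean of 800 to 1311 TPM in the 3 BALB/c sorts. Lists of genes that differ along the gut, chosen after the data were seen, set the intestinal groups apart: 6 colon genes summed to 1020 to 2057 TPM in all intestinal cells and the combined sort, and to 68.9 to 96.9 in the G and M sorts. Depth per library is unknown, since TPM keeps no read count. Because these are bulk samples, fewer cells of a type and less RNA per cell cannot be told apart. Whether replicate libraries came from separate animals is not stated, so the tests measure only the spread between libraries.

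**Figure D1:**
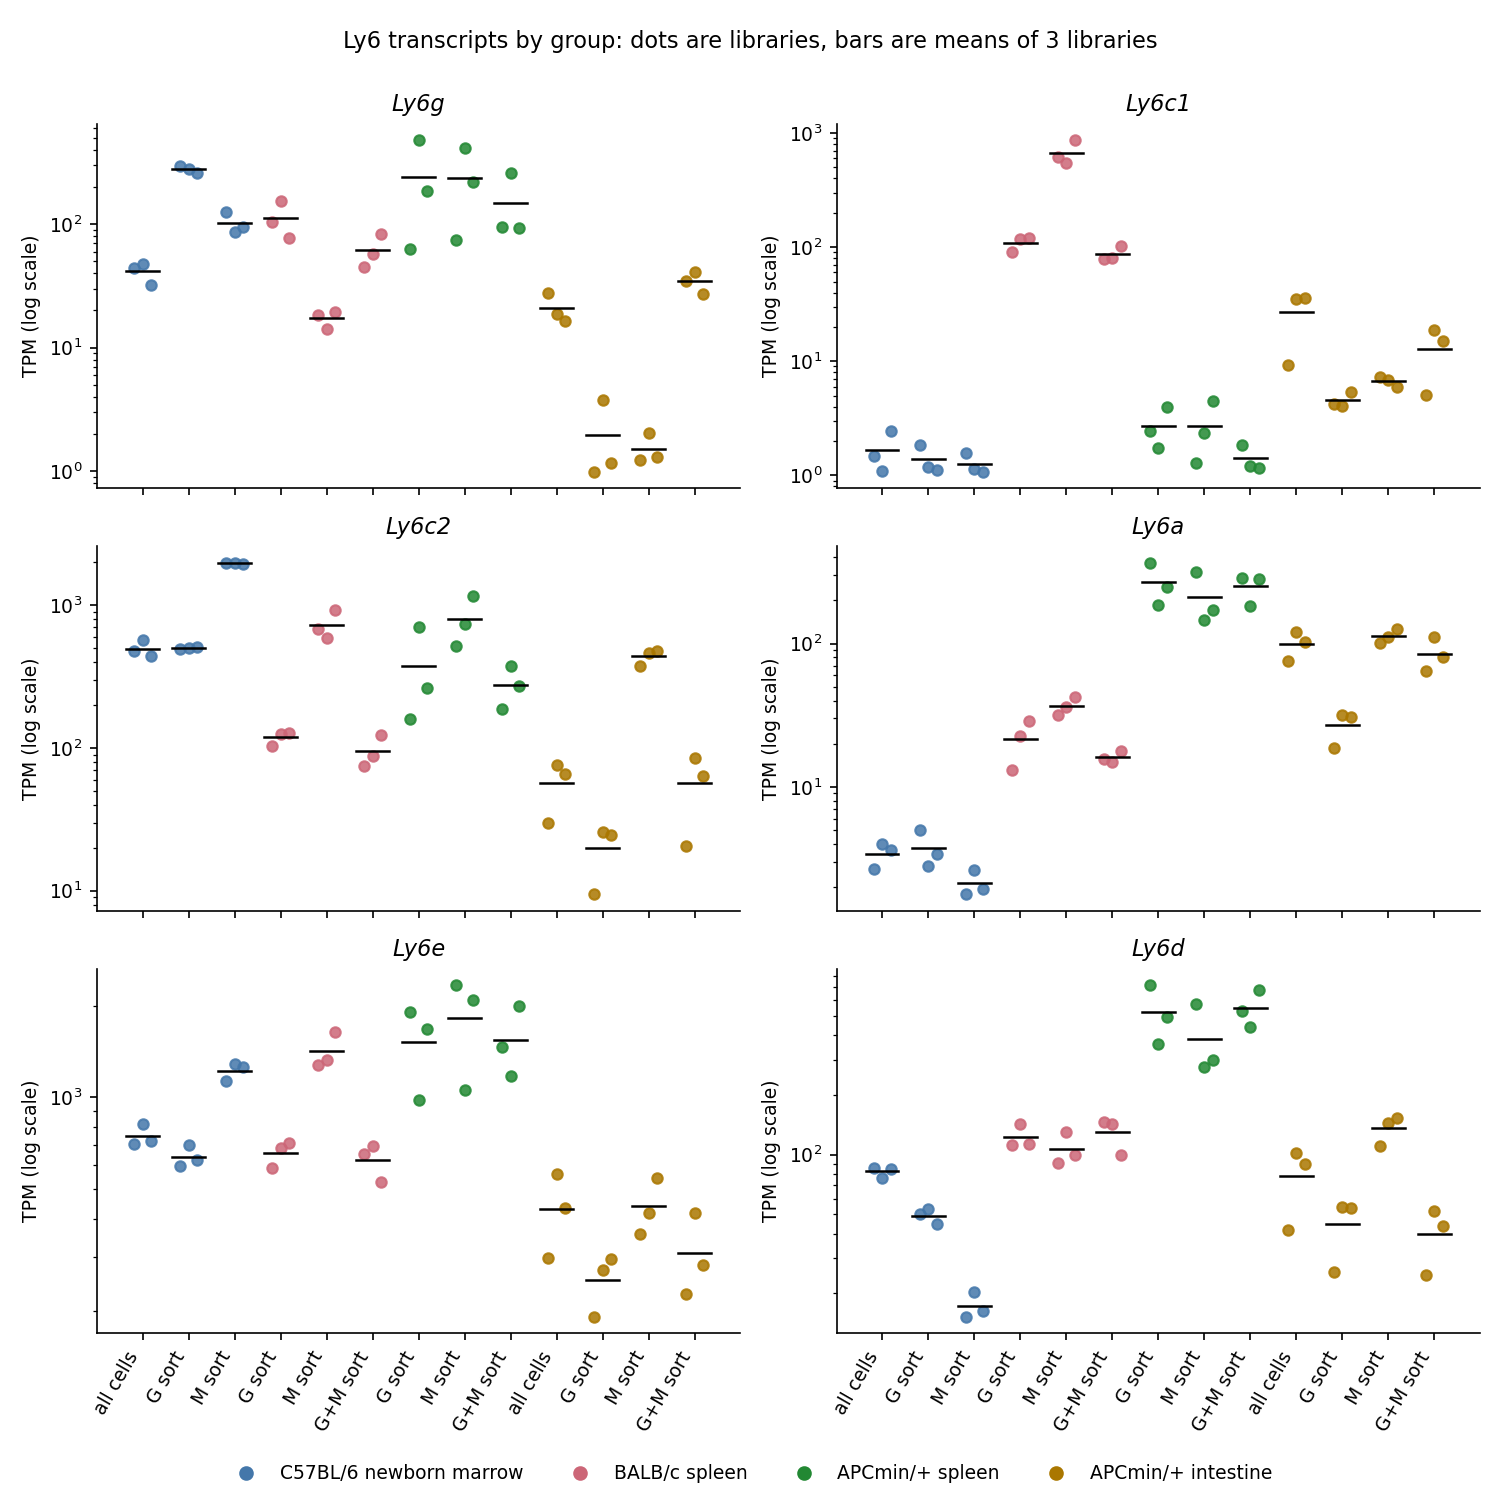
TPM of the 6 Ly6 genes in 13 groups (log axis; each dot is 1 library, each bar the mean of 3). Ly6c1 is at 78.8 TPM or more in every BALB/c library and at 35.7 or less in all others, and Ly6g falls to between 0.99 and 3.75 in the intestinal G and M sorts.

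Differences were tested with limma on log2(TPM + 1) over all 39 libraries, and a gene was called when its adjusted p was under 0.05 and its change at least 2-fold. Log2 fold changes are on that scale, with their standard error after ±. Between G and M sorts, 3 of the 6 genes were called in marrow (2 higher and 1 lower in G), where 10.2% of all genes were called, and 4 of 6 in BALB/c spleen (1 higher, 3 lower), where 4.94% were. In APCmin/+ spleen 1 of 6 was called (lower), against 3.22% of all genes, and in intestine 3 of 6 (all lower), against 2.83%. The G and M libraries did not overlap for 5 of the 6 genes in marrow, 5 in BALB/c spleen, 0 in APCmin/+ spleen and 5 in intestine. How often the libraries of all genes tested failed to overlap was not computed, so these counts have no background beside them. The median log2 fold change over the 6 genes was 0.33, -0.95, -0.01 and -1.23 at these sites in turn, beside 0.04, -0.05, -0.08 and 0.14 over all genes tested. Libraries numbered alike deviated together between the G and M sorts of APCmin/+ spleen and of intestine, and between the combined and G sorts there. For those comparisons results with the replicate number as a block are given where they change a call. Between the G against M contrasts of APCmin/+ spleen and marrow limma called 0 of the 6 genes, where 7.72% of all genes were called. An unadjusted p under 0.05 was found for 2 of the 6, and for 4849 of the 18466 genes tested.

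**Figure D2:**
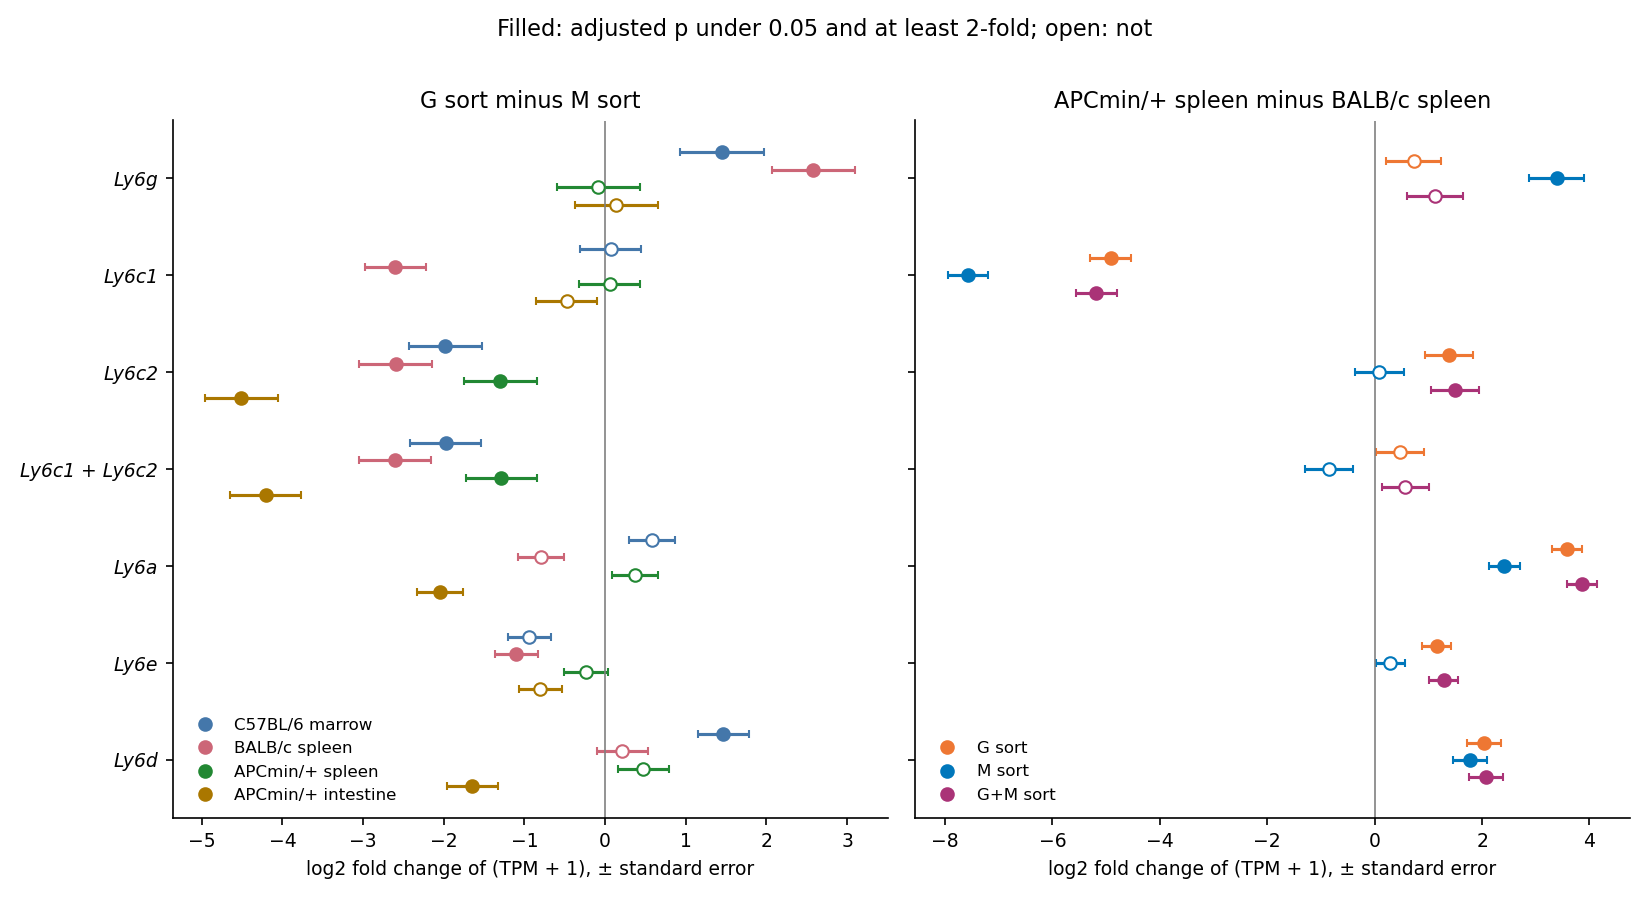
Log2 fold changes (± SE) of the 6 genes between G and M sorts at 4 sites and between APCmin/+ and BALB/c spleen for 3 sorts; filled points passed the test and the 2-fold minimum. Between G and M, Ly6c2 lies below 0 at all 4 sites and Ly6g was called in marrow and BALB/c spleen; between the spleens Ly6g was called in the M sort.

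Ly6g, the antigen that names the granulocytic gate, had its highest group mean in the marrow G sort, at 295, 282 and 262 TPM, although single libraries of APCmin/+ spleen reached 481 (G) and 411 (M). The marrow M sort had 126, 87.0 and 95.2, and all marrow cells 44.4, 47.7 and 32.1. The G libraries lay above all M libraries, which in turn lay above those of whole marrow, so that the M sort was not free of Ly6g transcripts. Ly6g was 2.72-fold higher in the G than in the M sort by means (log2 1.45 ± 0.52, adjusted p = 0.0315). That call did not survive the loss of a library in 5 of 6 cases, with log2 values of 1.41, 1.44 and 1.50 without G library 1, 2 or 3 and 1.34 and 1.41 without M library 2 or 3, and it held at 1.61 without M library 1. Without the filter on low values the adjusted p was 0.0579. The standard error of 0.52 draws on the spread within all 13 groups. A fit of only the marrow G and M libraries kept the call. Against all marrow cells Ly6g rose by 2.74 in the G sort (adjusted p = 4.86e-05) and by 1.29 in the M sort (adjusted p = 0.0373). The M sort's call was kept in 1 of its 6 leave-one-out fits, with log2 values from 1.12 to 1.40. In the marrow M sort the neutrophil genes summed to 143668 ± 12449 TPM (SD, n = 3), beside 149088 ± 5709 in the G sort. Of the 16 neutrophil genes, 7 were called higher in G than in M and 0 lower, where 10.2% of all genes were called. Their part in the Ly6g level was not tested.

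BALB/c spleen separated the sorts most widely by Ly6g. Its G libraries had 104, 155 and 77.9 TPM, its M libraries 18.5, 14.1 and 19.4, and its combined libraries 44.9, 57.02 and 83.9. G and M did not overlap, and the combined libraries were between them except for the third, which lay above the lowest G library. Ly6g was 6.48-fold higher in G than in M (2.58 ± 0.52, adjusted p = 4.78e-04), and the call held in each of the 6 fits without 1 library, between 2.32 and 2.81.

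In APCmin/+ spleen the sort names were not mirrored by Ly6g. The G libraries 1, 2 and 3 had 63.6, 481 and 186 TPM, the M libraries 74.6, 411 and 221, and the combined libraries 94.6, 258 and 94.0. Library 2 was the highest of all 3 sorts, and G and M spanned the same range. The log2 fold change of G against M was -0.08 ± 0.52 (adjusted p = 0.973), with an exact 3 against 3 permutation test unable to go below p = 0.1. It turned to 0.66 without G library 1, to 0.47 without M library 2, to 0.03 without M library 3, and to 0.12 after rescaling the libraries by median ratios. Neutrophil genes followed the order of libraries of Ly6g in the G and M sorts, with library 2 highest in all 3 sorts. They summed to 26939, 141932 and 63878 TPM in G libraries, 39457, 126823 and 102275 in M libraries and 36240, 79874 and 45237 in the combined sort. Of the 16 neutrophil genes, 4 were called higher in G than in M and 0 lower. Of 18 monocyte genes, 11 were called lower in G and 0 higher, where 3.22% of all genes were called. The part of neutrophil genes in the Ly6g values was not tested. The difference between the G against M contrasts of the spleens, APCmin/+ minus BALB/c, was -2.66 ± 0.73 for Ly6g, which missed the threshold (adjusted p = 0.0596). It passed without APCmin/+ G library 2 (-3.38, adjusted p = 0.00575) or without APCmin/+ M library 1 (-3.33, adjusted p = 0.00605).

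Between the spleens Ly6g differed in the M sort. Its mean was 236 ± 169 TPM (SD, n = 3) in APCmin/+ and 17.3 ± 2.80 in BALB/c, 13.6-fold higher and without overlap (3.39 ± 0.52, adjusted p = 7.25e-06). The call held in each of the 6 fits without 1 library, between 2.83 and 4.06. In the G sorts, 244 ± 215 against 112 ± 39.3 TPM overlapped (0.73, adjusted p = 0.306), and that difference was called without APCmin/+ G library 1 (1.46, adjusted p = 0.0208). In the combined sorts, 149 ± 94.5 against 61.9 ± 19.9 TPM did not overlap, and the difference did not pass (1.13, adjusted p = 0.107). Of the 16 neutrophil genes, 15 were higher in APCmin/+ in the M sort, 5 in the G sort and 5 in the combined sort, and 0 were lower in any of these. In the M sorts they summed to 39457 to 126823 TPM in APCmin/+ and 5920 to 8032 in BALB/c, and their part in the Ly6g difference was not tested.

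The intestinal G and M sorts had almost no Ly6g. It was 0.99, 3.75 and 1.17 TPM in the G libraries and 1.22, 2.03 and 1.29 in the M libraries, which overlapped (0.14 ± 0.52, adjusted p = 0.925). Without G library 2 the sign turned (-0.26), and after rescaling the value was -0.01. The other intestinal groups had more, at 27.9, 18.6 and 16.4 in all cells and 34.9, 41.0 and 27.5 in the combined sort. No library of these groups came near the G and M sorts. Against all cells Ly6g fell by 2.97 in the G sort (adjusted p = 1.3e-04) and by 3.11 in the M sort (adjusted p = 5.53e-05), and the combined sort exceeded the G sort by 3.68 (adjusted p = 7.09e-06). With the replicate number as a block the last difference was not called (adjusted p = 0.108).

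Transcripts of neutrophils and of colon epithelium were set beside Ly6g in the 12 intestinal libraries. The highest neutrophil sum, 807 TPM, was in G library 2, where Ly6g was 3.75, beside 54.2 and 84.6 in the other G libraries, with Ly6g of 0.99 and 1.17. All intestinal cells had sums of 103, 175 and 246 and Ly6g of 27.9, 18.6 and 16.4, and the combined sort sums of 108, 228 and 54.6 and Ly6g of 34.9, 41.0 and 27.5. The M sort had sums of 71.9, 43.4 and 65.35 and Ly6g of 1.22, 2.03 and 1.29. Within the G and the combined sort the list and Ly6g thus had the same order of libraries. In all cells and in the M sort they had the reverse order. The part of neutrophil RNA in these values was not tested. S100a8, a calcium-binding protein of neutrophils, averaged 27.3 TPM in all cells and 21.9 in the combined sort, against 73.1 in the G and 6.08 in the M sort. The colon genes did separate the groups as Ly6g did, with sums of 2057, 1039 and 1555 in all cells and 1836, 1020 and 1718 in the combined sort, against 89.4, 96.9 and 80.5 in G and 74.0, 79.7 and 68.9 in M. Car1, a carbonic anhydrase of colon epithelium and red cells, averaged 1181 and 1113 TPM in the first pair of groups and 0.863 and 0.317 in the G and M sorts, and Hoxb13, a homeobox gene of the hindgut, 33.8 and 39.1 against 0 and 0.0133. The stretch of gut and the sort therefore cannot be told apart in comparisons of the intestinal G or M sort with the other intestinal groups.

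**Figure D3:**
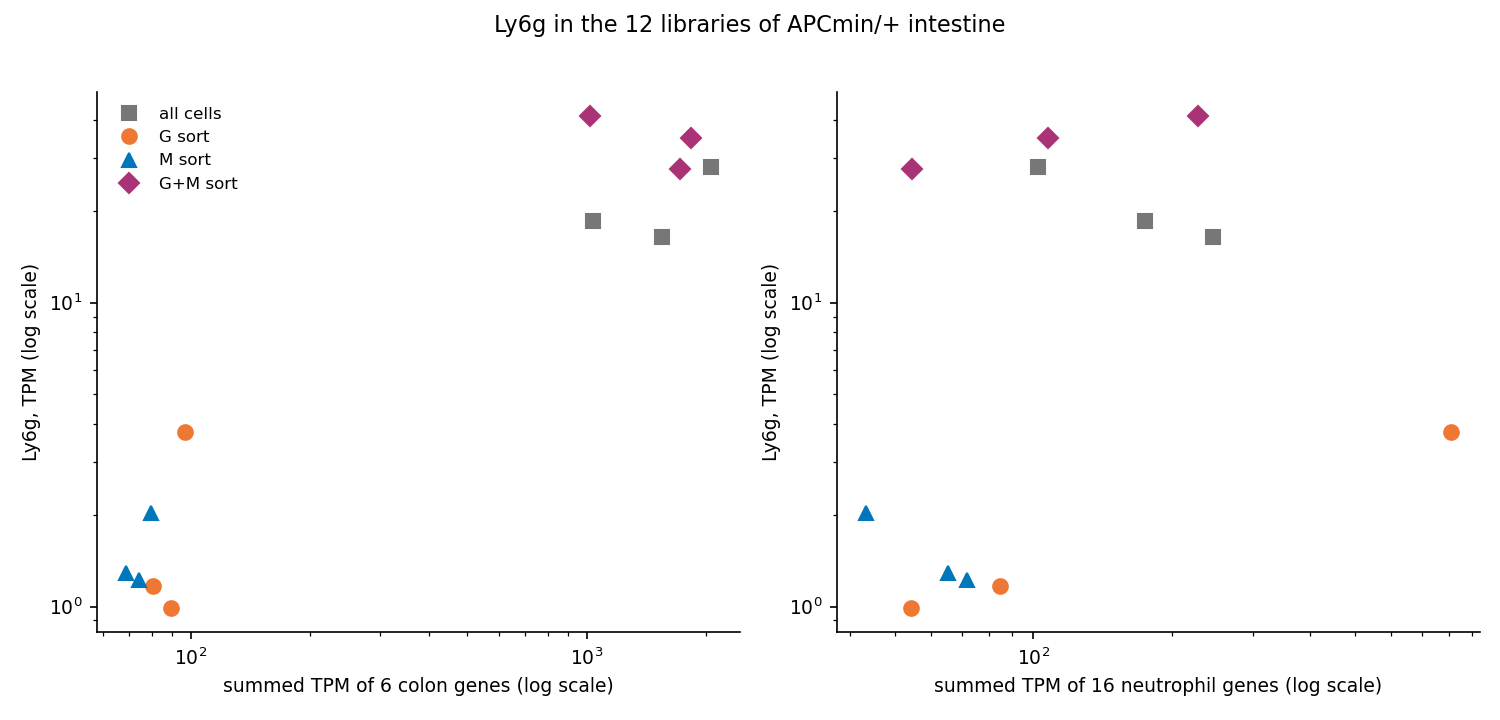
Ly6g TPM in the 12 intestinal libraries against the summed TPM of 6 colon epithelial genes (left) and of 16 neutrophil genes (right), by group. The 6 libraries of all cells and the combined sort, with Ly6g of 16.4 to 41.0, hold at least 1020 TPM of colon genes, and the 6 of the G and M sorts at most 96.9, while neutrophil sums of the G sort (54.2 to 807) span those of all the other groups except M library 2 (43.4).

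Ly6c2, the Ly6C gene of monocytes, ran the other way from Ly6g in marrow. The marrow M sort had 1988, 1989 and 1951 TPM, the G sort 491, 504 and 507, and all marrow cells 480, 572 and 438. The M libraries were far above the rest, and the G libraries lay within the range of whole marrow. Ly6c2 was 3.95-fold lower in G than in M (-1.98 ± 0.45, adjusted p = 9.32e-04) and rose by 2.00 in the M sort over whole marrow (adjusted p = 4.17e-04), while G against whole marrow gave 0.02 (adjusted p = 1). Summed with Ly6c1, the marrow G sort had 492 to 508 TPM, above the 193 to 246 of the BALB/c G sort, a difference that was not tested.

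In BALB/c spleen the M sort had 677, 587 and 932 TPM of Ly6c2, against 103, 126 and 127 in G and 75.3, 88.6 and 124 in the combined sort. The combined libraries did not stand between G and M but alongside G. Ly6c2 was 6.18-fold lower in G than in M (-2.60 ± 0.45, adjusted p = 8.26e-05), a call held in all 6 fits without 1 library.

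APCmin/+ spleen showed the same direction with wide scatter. The G libraries had 160, 706 and 264 TPM, the M libraries 523, 738 and 1158 and the combined libraries 187, 375 and 271. G library 2 lay above M library 1, so the sorts overlapped, although each M library exceeded the G library of its number. The log2 fold change was -1.30 ± 0.45 (adjusted p = 0.0383). This call was not stable: the adjusted p was 0.217 with the replicate number as a block, and it did not pass when G library 1 (-0.82) or 3 (-1.18) or M library 2 (-1.32) or 3 (-0.998) was left out, without the filter (adjusted p = 0.0758) and after rescaling (-1.10, adjusted p = 0.0842).

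Among the 6 genes and 4 sites, the widest gap between G and M sorts was that of Ly6c2 in the intestine. The M sort had 377, 467 and 476 TPM, the G sort 9.45, 25.9 and 24.6, all cells 29.7, 75.5 and 65.8, and the combined sort 20.5, 85.4 and 64.1. The M libraries stood apart from all others, and each numbered 1 was the lowest of its group. Ly6c2 was 22.0-fold lower in G than in M (-4.51 ± 0.45, adjusted p = 2.63e-07; with the block, adjusted p = 0.0365), and the contrast differed from that in APCmin/+ spleen by -3.21 ± 0.63 (adjusted p = 7.06e-04). In the comparison of these contrasts 3 of the 6 genes were called, against 8.52% of all genes. Neither monocyte nor neutrophil genes were abundant in that M sort: 18 monocyte genes summed to 550 TPM on average, beside 388 in its G counterpart and 5457 in the M sort of marrow, and the neutrophil sum was 43.4 to 71.9. Plasma cell genes (8 listed) were, at 43602 to 57768 TPM in the M sort against 2259 to 5059 in the G sort. Of the 8, 7 were called lower in G. Of the 18 monocyte genes, 8 were called lower in G and 0 higher, where 2.83% of all genes were called. Against all intestinal cells, 4 of the 18 were called higher in the M sort and 0 lower, where 4.42% of all genes were called. All intestinal cells had plasma sums of 8564, 36600 and 27459, beside Ly6c2 of only 29.7, 75.5 and 65.8. The combined sort had sums of 3787, 15093 and 12692, beside Ly6c2 of 20.5, 85.4 and 64.1. The parts of plasma cell RNA and of monocyte RNA in the Ly6c2 levels were not tested.

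**Figure D4:**
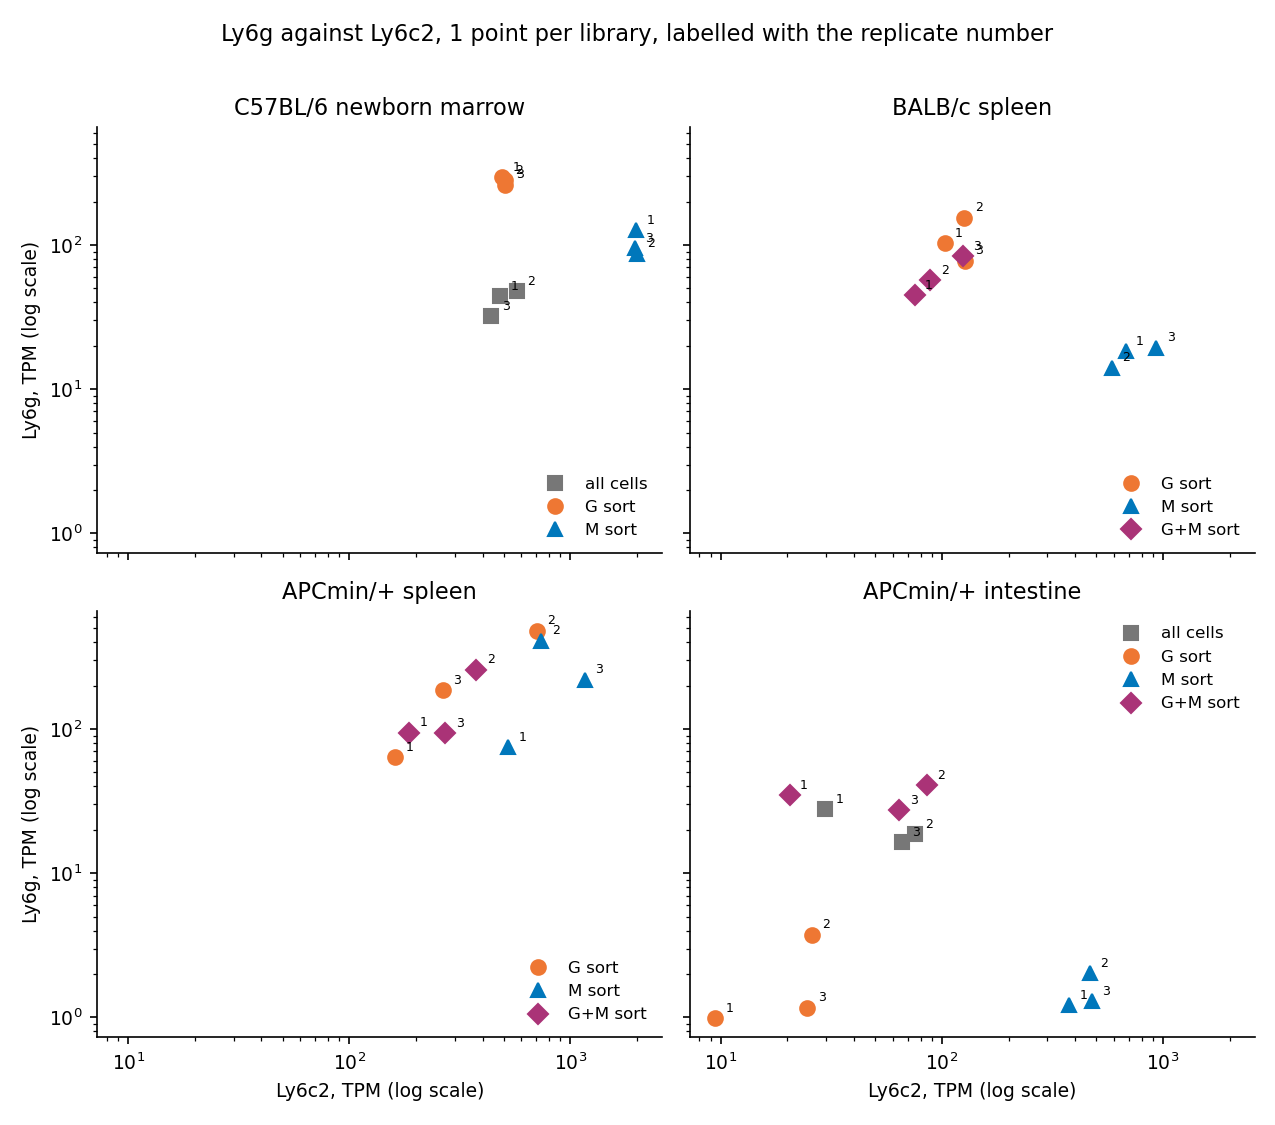
Ly6g against Ly6c2 in TPM (log axes) at 4 sites, with points coloured by sort and labelled with the replicate number. G and M sorts form separate clouds in marrow and BALB/c spleen, intermix in APCmin/+ spleen, and differ along the Ly6c2 axis alone in the intestine.

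The ratio of Ly6g to Ly6c2, a measure within a library that rescaling cannot alter, had a higher mean in the G than in the M sort at every site. It was 0.559 ± 0.0425 (SD, n = 3) in the marrow G sort against 0.0520 ± 0.0103 in the M sort and 0.0831 in all marrow cells. BALB/c spleen had 0.951 ± 0.311 in G and 0.0240 ± 0.00323 in M, with the combined sort at 0.639 ± 0.0393. In APCmin/+ spleen the G sort averaged 0.594 ± 0.172 and the M sort 0.297 ± 0.227, with M libraries at 0.143, 0.558 and 0.191. M library 2 alone reached the level of the G sort. The intestinal ratios were 0.0991 in the G and 0.00343 in the M sort, but with Ly6g at 3.75 TPM or less these rest on very low values. All intestinal cells had a mean of 0.479 ± 0.399 and the combined sort 0.871 ± 0.722, both above the intestinal G sort.

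Ly6c1, the second Ly6C gene and one known from endothelium, was far higher in BALB/c spleen than in marrow or APCmin/+ spleen. In the 9 BALB/c libraries it ran from 78.8 to 869 TPM, in the 9 marrow libraries of C57BL/6 mice from 1.08 to 2.47, and in the 9 splenic libraries of APCmin/+ mice from 1.17 to 4.53. The lowest BALB/c library, at 78.8, lay far above the highest of marrow and APCmin/+ spleen, at 4.53. BALB/c M libraries had 613, 545 and 869 TPM, G libraries 90.6, 117 and 120, and combined libraries 78.8, 79.7 and 102. Against BALB/c, Ly6c1 had log2 fold changes in APCmin/+ spleen of -4.92 in the G sort (adjusted p = 1.39e-11), -7.57 in the M sort (adjusted p = 4.97e-16) and -5.19 in the combined sort (adjusted p = 4.1e-12). By means that was 39.9-fold, 249-fold and 61.5-fold lower.

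Within BALB/c spleen the pair ran together. Ly6c1 was 6.19-fold lower in the G than in the M sort (-2.60 ± 0.38, adjusted p = 8.07e-06), beside 6.18-fold for Ly6c2, and Ly6c1 per Ly6c2 lay between 0.818 and 1.05 in all 9 libraries. Ly6c2 made up 48.9% to 55.0% of the summed pair there, against 99.4% to 99.9% in marrow and 98.5% to 99.8% in APCmin/+ spleen. In marrow and in APCmin/+ spleen, at 4.53 TPM or less, Ly6c1 gave 0.07 and 0.06 between G and M, and neither was called (adjusted p = 0.961 and 0.976). Both signs turn when 1 library is left out, to -0.07 in marrow without G library 1 and to -0.17 or -0.25 in spleen without G library 3 or M library 1. The difference between the G against M contrasts of the spleens was 2.66 ± 0.54 for Ly6c1 (adjusted p = 0.00698), where 1 of 6 genes was called against 1.08% of all genes.

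**Figure D5:**
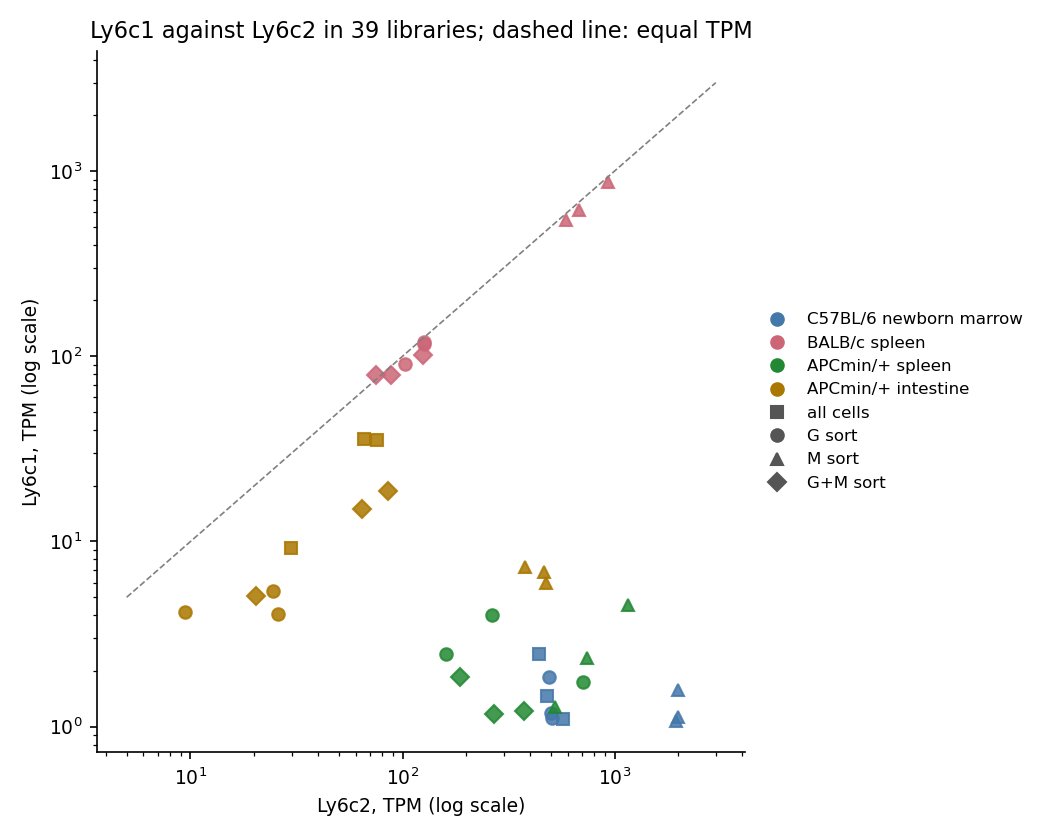
Ly6c1 against Ly6c2 in TPM (log axes) for 39 libraries, coloured by site; the dashed line marks equal values. BALB/c libraries follow the line, with a ratio of 0.818 to 1.05, and the marrow and APCmin/+ spleen libraries lie far below it.

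With the pair summed the difference between the spleens in Ly6C transcripts was no longer called. The sum was 228 ± 29.7 TPM (SD, n = 3) in the BALB/c and 379.6 ± 289 in the APCmin/+ G sort (0.47 ± 0.44, adjusted p = 0.457), 1408 ± 349 against 809 ± 324 in the M sorts (-0.85, adjusted p = 0.134) and 183 ± 38.0 against 279 ± 93.9 in the combined sorts (0.57, adjusted p = 0.37). Without APCmin/+ G library 2 the first of these turned to -0.11. Taken singly, Ly6c2 was higher in APCmin/+ spleen in the G sort (1.39 ± 0.45, adjusted p = 0.0186) and in the combined sort (1.50, adjusted p = 0.0127), but not in the M sort (0.09, adjusted p = 0.924). In the G sort it was not called without BALB/c G library 1 (1.29) or APCmin/+ G library 2 (0.80), and that of the combined sort without BALB/c library 1 (1.34) or APCmin/+ library 2 (1.25). The sum kept the G against M calls of Ly6c2 in marrow (-1.98, adjusted p = 8.24e-04), BALB/c spleen (-2.60, adjusted p = 6.66e-05) and intestine (-4.21, adjusted p = 5.24e-07). In APCmin/+ spleen the sum was called too (-1.29, adjusted p = 0.0374), but not with the replicate number as a block (adjusted p = 0.217).

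Ly6c1 was also found in the intestine. Against spleen of the same genotype it was higher in the M and combined sorts, as given with the tissues, while 0.61 in the G sort did not pass (adjusted p = 0.156). All intestinal cells had 9.27, 35.5 and 35.7 TPM, the combined sort 5.08, 18.6 and 15.02, the G sort 4.18, 4.05 and 5.42 and the M sort 7.25, 6.88 and 5.96. Libraries 2 and 3 of the first pair of groups were high, and library 1 was low in both. Ly6c1 fell in the G sort by 2.12 (adjusted p = 1.9e-04) and in the M sort by 1.64 (adjusted p = 0.00227) against all cells. Neither was called in a fit of only the groups compared (adjusted p = 0.137 and 0.107). G against M gave -0.48 ± 0.38 (adjusted p = 0.462). Endothelial genes (9 listed) summed to 39.7, 131 and 126 TPM in all cells and 17.4, 52.5 and 47.1 in the combined sort, against 18.8 to 28.9 in G and 25.1 to 29.1 in M. Library 1 was the lowest of these first 2 groups for the list as for Ly6c1, and also for Ly6c2, Ly6a, Ly6e and Ly6d. The part of endothelial RNA in the Ly6c1 values was not tested. Across these 12 libraries the genes with the pattern most like that of Ly6c1 were Tm4sf1 (Pearson r of log2 values 0.981), Cyyr1 (0.978), Adgrl4 (0.978), Mcam (0.977) and Igfbp7 (0.976), a description without a test over libraries that share the split by colon transcripts.

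Between the spleens of APCmin/+ and BALB/c mice, 5 of the 6 genes were called in the G sort (4 higher and 1 lower in APCmin/+), against 8.87% of all genes. In the M sort 4 were (3 higher, 1 lower), against 11.5%, and in the combined sort 5 were (4 higher, 1 lower), against 9%. The groups did not overlap for 5, 4 and 6 of the 6 genes, and the share of all genes without overlap was not computed. The median over the 6 genes was 1.27, 1.04 and 1.39 on the log2 scale, while the median of all genes tested was -0.15, -0.14 and -0.12. Strain, the Apc mutation, the immune deficiency and any difference in age cannot be told apart in these comparisons. A fit of only the 6 libraries compared kept 3 calls in the G sort, without Ly6c2 (adjusted p = 0.151) and Ly6e (adjusted p = 0.0537).

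Ly6a, which encodes the stem cell and interferon-induced antigen Sca-1, was higher in APCmin/+ than in BALB/c spleen in every sort. The APCmin/+ G libraries had 367, 186 and 249.6 TPM, the M libraries 314, 146 and 171 and the combined libraries 289, 183 and 282. In BALB/c the G libraries had 13.2, 22.8 and 28.9, the M libraries 31.9, 36.0 and 42.0 and the combined libraries 15.6, 14.9 and 17.7. The lowest APCmin/+ library was above the highest BALB/c library, 146 against 42.0. Ly6a rose by 3.58 ± 0.29 in G (12.4-fold by means, adjusted p = 2.95e-11), by 2.42 in M (5.74-fold, adjusted p = 1.12e-07) and by 3.86 in the combined sort (15.6-fold, adjusted p = 5.33e-12). These calls held in every fit without 1 library.

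Marrow had almost no Ly6a, at 1.78 to 5.00 TPM in its 9 libraries. Against the marrow of newborn C57BL/6 mice, Ly6a in APCmin/+ spleen was higher by 5.79 in the G sort (adjusted p = 2.87e-16) and by 6.01 in the M sort (adjusted p = 3.89e-16), which is 71.5-fold and 99.2-fold by means. Ly6c2 was lower by 1.37 in the splenic M sort (adjusted p = 0.014), a call lost without splenic M library 1 (-1.10), and Ly6g gave 0.89 (adjusted p = 0.169), which passed without that library (1.56, adjusted p = 0.0187). In these comparisons 3 of the 6 genes were called in each sort, against 18.2% of all genes in G and 15.7% in M, and organ, age and genotype cannot be told apart. Of 20 interferon response genes, 17 were higher in spleen than marrow for G and 16 for M. Between APCmin/+ and BALB/c spleen they were mixed, with 6 higher and 1 lower in G, 3 and 2 in M, and 4 and 1 in the combined sort, and their part in Ly6a was not tested. The list summed to 1407 to 2250 TPM in the APCmin/+ G sort, 865 to 1061 in the BALB/c G sort, 1207 to 2217 in the APCmin/+ M sort and 1682 to 2455 in the BALB/c M sort.

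Between G and M sorts Ly6a differed in the intestine. It was 18.6, 31.9 and 30.8 TPM in the G and 101, 111 and 127 in the M libraries, without overlap, and 75.5, 120 and 103 in all cells. The G sort was 4.16-fold lower than the M sort (-2.05 ± 0.29, adjusted p = 2.03e-05). The contrast differed from that of APCmin/+ spleen by -2.42 ± 0.40 (adjusted p = 1.63e-04). In BALB/c spleen the G sort was lower by 0.79 (adjusted p = 0.052), which passed without G library 3 (-1.03, adjusted p = 0.0224), and in marrow and APCmin/+ spleen the differences of 0.59 and 0.37 were not called (adjusted p = 0.126 and 0.402). In APCmin/+ spleen each G library was above the M library of its number (with the block, adjusted p = 0.152).

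Ly6e, the widely made member, had the highest mean TPM of the 6 in every group except the marrow M sort. In the intestinal M sort its mean of 440.3 was barely above the 440.1 of Ly6c2. Over all 39 libraries it ran from 191 to 2330 TPM, with a median of 696. BALB/c M libraries had 1278, 1328 and 1641 TPM against 585, 682 and 707.5 in G, without overlap (-1.10 ± 0.27, adjusted p = 0.00366), which missed the 2-fold minimum without M library 3 (-0.99). Marrow M libraries had 1128, 1285 and 1256 against 594, 696 and 626 in G, also without overlap, and the difference of -0.94 (adjusted p = 0.00772) was under 2-fold. It reached -1.001 without G library 2. APCmin/+ spleen had 1903, 984 and 1682 in G, 2330, 1057 and 2087 in M and 1466, 1179 and 1997 in the combined sort. Library 2 was the lowest of each, where Ly6g was highest, and G and M overlapped (-0.24, adjusted p = 0.615). Each G library was below the M library of its number, and with the replicate number as a block the difference did not pass either (adjusted p = 0.32).

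Against BALB/c spleen Ly6e rose in APCmin/+ by 1.16 in the G sort (adjusted p = 0.00155) and by 1.28 in the combined sort (adjusted p = 6.31e-04). The M sorts gave 0.29 (adjusted p = 0.423). The call in the G sort was lost without APCmin/+ G library 1 (0.97). Over marrow, APCmin/+ spleen had more Ly6e in the G sort (1.201, adjusted p = 4.72e-04), and 0.50 in the M sort did not pass (adjusted p = 0.14). In the intestine all 12 libraries lay between 191 and 560 TPM, with G at 191, 273 and 295 and M at 357, 418 and 545 (-0.80, adjusted p = 0.0737), a difference that was called after rescaling by median ratios (-1.01, adjusted p = 0.00375).

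Ly6d, the antigen of B lineage commitment, separated spleen from marrow. APCmin/+ spleen had 714, 363 and 494 TPM in G, 573, 275 and 301 in M and 531, 441 and 679 in the combined sort. BALB/c spleen had 112, 142 and 114 in G, 90.4, 129 and 99.0 in M and 146, 143 and 100 in the combined sort. Every APCmin/+ library was above every BALB/c library, with differences of 2.04 in G (adjusted p = 1.2e-05), 1.78 in M (adjusted p = 5.77e-05) and 2.07 in the combined sort (adjusted p = 9.72e-06). G against M was not called in either spleen (0.21 in BALB/c, 0.47 in APCmin/+), although each APCmin/+ G library was above the M library of its number (with the block, adjusted p = 0.151). Mature B cell genes (8 listed) summed to 6126 to 6327 TPM in the BALB/c and 2983 to 5954 in the APCmin/+ G sort, 3570 to 4866 and 1846 to 4520 in the M sorts, and 5201 to 7323 and 3609 to 4913 in the combined sorts. Of the 8, 0 were called higher in APCmin/+ in any sort, and 1 was called lower, in the M sort. Their part in the Ly6d difference was not tested.

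In marrow Ly6d stood at 50.0, 53.2 and 44.7 TPM in G, 15.2, 20.4 and 16.3 in M and 85.5, 76.7 and 84.8 in all cells, with no overlap between the 3 groups. It was 2.85-fold higher in the G than in the M sort (1.47 ± 0.32, adjusted p = 5.5e-04) and fell by 2.20 in M against all cells (adjusted p = 1.22e-06), while G against all cells gave -0.73 (adjusted p = 0.0545). Precursor B genes (8 listed) summed to 2100 to 2325 TPM in the G sort, 191 to 268 in the M sort and 634 to 780 in all cells, with 8 of 8 called higher in G than in M. They were highest in the G sort while Ly6d was highest in all cells, and their part in the Ly6d difference was not tested. From marrow to APCmin/+ spleen Ly6d rose by 3.33 in G (adjusted p = 6e-10) and by 4.32 in M (adjusted p = 4.52e-12). Mature B genes were higher in spleen in 7 of 8 members for G and 8 of 8 for M. Precursor B genes were lower in 8 of 8 for G, and for M 6 of 8 were lower and 2 higher.

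Intestinal Ly6d was 25.6, 54.6 and 53.8 TPM in G, 111, 145 and 152 in M, 41.8, 102 and 89.3 in all cells and 24.6, 51.8 and 43.6 in the combined sort. The M libraries were the highest of the intestine and did not overlap with any other group there. G was lower than M by 1.65 on the log2 scale (adjusted p = 9.76e-04), a difference not called with the replicate number as a block (adjusted p = 0.0513). The contrast differed from that of APCmin/+ spleen by -2.12 ± 0.45 (adjusted p = 0.00119), and with the block it did not pass (adjusted p = 0.0786). Plasma cell genes were likewise highest in the M sort, as given with Ly6c2, and library 1 was lowest in each intestinal group for both. Library 1 was also the lowest of each of these groups for Ly6c2, Ly6a and Ly6e.

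The combined sorts were set against each single sort. In BALB/c spleen 0 of 6 genes were called between the combined and the G sort by limma, with 0 at an unadjusted p under 0.05, where 0% of all genes were called and 813 of 18466 had an unadjusted p under 0.05. Against the M sort 5 of 6 were called (5.46% of all genes), Ly6g higher by 1.75 (adjusted p = 0.0147) and Ly6c1, Ly6c2, Ly6a and Ly6e lower (-2.93, -2.92, -1.14 and -1.18). The Ly6g call was lost without M library 2 (1.61) or combined library 3 (1.51), and rescaling by median ratios left 3 of the 5 calls. APCmin/+ spleen gave 0 of 6 between the combined and the G sort as well, with 0 at an unadjusted p under 0.05 (0% of all genes called, 1004 at an unadjusted p under 0.05). Against the M sort it gave 1 (3.18% of all genes), Ly6c2 at -1.51 (adjusted p = 0.0227), lost without M library 3 (-1.22) or combined library 1 (-1.26), and with no call left after rescaling.

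The intestinal combined sort differed from both single sorts in Ly6g. Against all cells 2 of the 6 genes had an unadjusted p under 0.05 by limma, as had 2388 of the 18466 genes tested. In that comparison 0 of 6 were called, where 3.24% of all genes were called. Against the G sort 2 were (1.94% of all genes), Ly6g (3.68) and Ly6a (1.62, adjusted p = 2.39e-04), and neither with the replicate number as a block (adjusted p = 0.108 and 0.114). Without combined library 1, Ly6c1 (1.68) and Ly6c2 (1.96) were called too. Against the M sort 3 were called (6.49% of all genes), with Ly6g higher (3.81) and Ly6c2 and Ly6d lower (-3.15 and -1.79).

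Against all cells of their tissue, 1 of 6 genes was called in the marrow G sort (Ly6g) and 3 in the marrow M sort (Ly6g and Ly6c2 higher, Ly6d lower), where 19.1% of all genes were called in each. In the intestine 4 were called in the G sort, all lower (5.38% of all genes), and 3 in the M sort (4.42%). Ly6c2 fell by 1.48 in the intestinal G sort (adjusted p = 0.0228), which did not pass without G library 1 (-1.04) or without library 2 (-1.23) or 3 (-1.33) of all cells. It rose by 3.03 in the M sort (adjusted p = 1.01e-05). Ly6d gave 0.88 in the M sort (adjusted p = 0.0362), under 2-fold, and passed without library 2 (1.12) or 3 (1.03) of all cells.

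From spleen to intestine of APCmin/+ mice Ly6g, Ly6e and Ly6d were lower in all 3 sorts. The G sort had 5 of 6 called, all lower (40.8% of all genes), the M sort 4, of which 3 were lower (39.9%), and the combined sort 6, of which 5 were lower (39.3%). Ly6g changed by -6.04 in G, -6.26 in M and -1.93 in the combined sort, which is 124-fold, 156-fold and 4.32-fold by means. Ly6c2 fell by 4.01 in G and by 2.44 in the combined sort, and in the M sort -0.80 did not pass (adjusted p = 0.109). Ly6c1 rose by 1.14 in M and by 2.38 in the combined sort, and the M call was lost without splenic M library 1 (0.84). Ly6d fell by 1.42 in M, a change that was under 2-fold after rescaling by median ratios (-0.77). All genes tested had a median of -0.16 in G, -0.43 in M and -0.15 in the combined sort, and the epithelial transcripts given above separate these groups as well.

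The order of the 13 groups by mean level had few clean steps. For Ly6g, 10 of the 12 neighbouring pairs overlapped, and gaps without overlap followed the marrow M sort (103 ± 20.7 TPM) and the BALB/c M sort (17.3 ± 2.80). Above the first gap were the marrow G sort (279.7 ± 16.8), the APCmin/+ splenic G (244 ± 215), M (236 ± 169) and combined sorts (149 ± 94.5) and the BALB/c G sort (112 ± 39.3). Ly6c2 had 9 overlapping pairs, with steps after the marrow M sort (1976 ± 21.9), the BALB/c M sort (732 ± 179) and the APCmin/+ combined sort (278 ± 94.2). Ly6c1 and Ly6a had 8 each, Ly6d 9 and Ly6e 11.

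Other genes of the family were taken from a list of 40, of which 34 were in the table and 17 passed the filter. Between G and M sorts 2 rose and 1 fell in marrow, 1 and 1 in BALB/c spleen, 0 and 0 in APCmin/+ spleen and 0 and 2 in the intestine. Ly6i was lower in G by 2.00 in marrow, by 1.52 in BALB/c spleen and by 1.96 in the intestine. Its mean levels were 5.71, 3.58 and 4.47 TPM in the M sorts and 0.673 or less in G. Cd177, a neutrophil antigen outside the locus, averaged 747 in the marrow G and 671.5 in the M sort, and 105 and 121.5 in BALB/c spleen. Between APCmin/+ and BALB/c spleen 4, 4 and 4 were higher and 0, 0 and 1 lower in the G, M and combined sorts. Lynx1, which binds acetylcholine receptors, rose in each of the 3 (by 2.27, 1.97 and 2.39), from means of 2.50 to 2.86 TPM to means of 14.1 to 19.1, and Cd177 did so by 1.44, 2.05 and 1.79.

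Genes whose pattern was most like each member were ranked by Pearson r of log2(TPM + 1) over 39 libraries, which share sites and cell makeup, so the values are descriptions. Ly6g was most like Abtb2 (0.911), R3hdm4, Ndel1, Slc17a9 and Cebpd (0.902), a factor of granulocyte genes, and all 5 were also its nearest over the 13 group means. Ly6c2 was most like Lyz2 (0.868), the lysozyme of myeloid cells, F10, Emp3, Csf2rb2 and Tbc1d8, with 4 kept over group means. Ly6e was most like Pot1b (0.942), Tmed5, Klhl20 and the interferon-induced genes Ifi27l2a (0.897) and Ifit2 (0.896), with 4 kept. Ly6c1 was most like Zfp30 (0.932), Ly6a most like Pdia4 (0.903) and Ly6d most like H2-Eb2 (0.927), a class II gene of antigen-presenting cells, with 2 of 5 kept for each of these members.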

How the data were processed

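Polyadenylated RNA of 39 mouse samples was grouped by label into 13 groups of 3. Per the labels' protocols, stranded libraries were sequenced as single reads of 75 bases. Per the submitters' processing notes, bcl2fastq 2.18 made the read files, STAR 2.6.1c placed the reads on mm10 and RSEM quantified them; RSEM's version and its annotation were not given in the sources used. The TPM values, 1 per gene and library, are RSEM's as deposited by the authors and sum to 1000000 in each library, so the read depth behind a value is unknown and counting intervals were not computed. Date-like entries in the symbol column (26) were restored to gene symbols by gene identifier, and no libraries held identical values (0 pairs).

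The 18466 of 53465 genes that reached 1 TPM in 3 or more libraries were tested as log2(TPM + 1) with limma 3.58.1 in R 4.3.3. One fit of all 39 libraries, with a mean per group and a variance trend, gave 26 comparisons, each with two-sided moderated p-values adjusted by Benjamini and Hochberg over all genes tested. A call needed an adjusted p under 0.05 and a 2-fold change. The fit was tested on simulated data.

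All 6 members are named throughout. Other genes named are members of the family list that were called, markers, and the 5 genes of highest Pearson r with a mean TPM of at least 5. The members, lists and tests were chosen with earlier results of these data known, and the colon list and the ranking over intestinal libraries after their values were seen.

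Equally numbered libraries were taken as paired where the correlations of their deviations from the group means all passed 0.1, a pairing that comes from the data and not from the labels. This held for the G and M sorts of APCmin/+ spleen (0.555, 0.375, 0.404) and intestine (0.599, 0.432, 0.562), for combined against all cells (0.643, 0.59, 0.628) and against G (0.189, 0.137, 0.184) in intestine, and for combined against G in APCmin/+ spleen (0.112, 0.33, 0.2). Alternatives were a pseudocount of 0.1, no filter, rescaling by median ratios over genes at 5 TPM or more in every library, no variance trend, a fit of only the groups compared, the replicate block, Ly6c1 and Ly6c2 summed, each library left out, and likeness over group means.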

Additional observations from a re-analysis of the deposited data

Results flagged for a closer look

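For 4 genes the difference between G and M sorts was itself different between sites, by a limma test of the difference of the contrasts. Ly6c1 was lower in G than in M in BALB/c spleen (-2.60) and gave 0.06 in APCmin/+ spleen, where its level was 4.53 TPM or less, and the contrasts differed by 2.66 (adjusted p = 0.00698), a call held in all 12 fits without 1 library. It was not made in a fit of these groups alone (adjusted p = 0.105) or for the summed pair of Ly6c1 and Ly6c2 (1.32, adjusted p = 0.397).

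The other 3 concern intestine against spleen of APCmin/+ mice. Ly6c2 had G against M contrasts of -4.51 in intestine and -1.30 in spleen, a difference of -3.21 (adjusted p = 7.06e-04). Ly6a had -2.05 and 0.37, a difference of -2.42 (adjusted p = 1.63e-04), and Ly6d had -1.65 and 0.47, a difference of -2.12 (adjusted p = 0.00119). In a fit of only these groups the adjusted p was 0.0573 for Ly6c2 and 0.0646 for Ly6d, neither of them called, and Ly6a kept its call. With the replicate number as a block the adjusted p was 0.0315 for Ly6c2, 0.0426 for Ly6a and 0.0786 for Ly6d. The median of all genes differed by 0.23 in this comparison.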

How the results depend on the processing

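With TPM alone, depth is unknown, and members under about 5 TPM (Ly6g in intestinal G and M sorts, Ly6c1 in marrow and APCmin/+ spleen) carry unknown counting error. Of 1805 values recomputed under the alternatives for 160 results, 1627 kept their direction and side of the threshold or moved little. Dropping the variance trend or a pseudocount of 0.1 changed no call. With the replicate block in fits of only the groups compared, and numbers that do not pair these samples, the calls between APCmin/+ and BALB/c spleen were lost for Ly6a in G (3.58) and M (2.42), Ly6d in G (2.04), combined (2.07) and M (1.78), Ly6e in G (1.16) and combined (1.28), Ly6g in M (3.39) and Ly6c2 in G (1.39) and combined (1.50), at adjusted p from 0.0526 to 0.173, with 1, 1 and 2 members called in G, M and combined. The same fits without the block lost Ly6c2 (1.39) and Ly6e (1.16) in G, where 3 members were called. For G against M in APCmin/+ spleen, Ly6c2 (-1.30) and the summed pair (-1.29) were not called with the block, in the fit of these groups alone (adjusted p = 0.397) or without the filter, nor after rescaling (-1.10 and -1.09), each leaving 0 members called. Rescaling turned Ly6g, G against M, to 0.12 in APCmin/+ spleen and to -0.0058 in intestine, and dropping the filter lost the call of Ly6g in marrow (1.45). Summing the pair gave, in place of Ly6c1, 0.47, -0.85 and 0.57 between the spleens in G, M and combined, G against M values of -1.98 in marrow, -1.29 in APCmin/+ spleen and -4.21 in intestine, 2.53 for intestinal M against all cells, and -0.79 and -2.15 for intestine against spleen in M and combined; in place of Ly6c2 it gave the same 0.47, -0.85 and 0.57. Members called fell in the fit of the groups alone to 1 (difference of contrasts between intestine and spleen), 0 (between the spleens), 2 (intestinal G against all), 1 (combined against G, intestine) and 0 (combined against M, APCmin/+ spleen). With the replicate block they fell to 0 in intestinal G against all, M against all and combined against G, to 1 in combined against M there and to 0 in combined against M in APCmin/+ spleen, and the block ended no other call of the paired comparisons than those given in the report. In intestinal comparisons whose numbers did not pair the libraries, the block ended the calls of Ly6g, Ly6c1, Ly6c2 and Ly6a in G against all cells (adjusted p from 0.0735 to 0.13), of Ly6g, Ly6c1 and Ly6c2 in M against all (from 0.0814 to 0.134) and of Ly6c2 and Ly6d in combined against M (0.0803 and 0.069). Rescaling left 0 for combined against M in APCmin/+ spleen and 3 in BALB/c spleen. Leaving out 1 library gave, for G against M, ranges of 1.34 to 1.61 (Ly6g, marrow), -0.79 to 0.66 (Ly6g, APCmin/+ spleen), -0.26 to 0.37 (Ly6g, intestine), -0.066 to 0.17 (Ly6c1, marrow), -0.25 to 0.39 (Ly6c1, APCmin/+ spleen), -1.89 to -0.82 (Ly6c2, APCmin/+ spleen) and -1.87 to -0.81 (the summed pair there), and -0.589 to 0.052 (Ly6e, APCmin/+ spleen), which turned in sign without G library 2 alone. Between the spleens the ranges were 0.014 to 1.46 (Ly6g in G), 0.80 to 1.86, -0.21 to 0.36 and 1.25 to 1.75 (Ly6c2 in G, M and combined), 0.97 to 1.45 (Ly6e in G) and -0.11 to 0.94 (summed pair in G). Members called then ranged from 0 to 1 for the APCmin/+ spleen contrast of G with M and for its difference from marrow, 1 to 3 for its difference from BALB/c, 3 to 5 for APCmin/+ spleen against marrow in G, 2 to 4 and 0 to 2 for the intestinal combined sort against G and against all cells, and 0 to 1 for combined against M in APCmin/+ spleen.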

Other observations

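Within the 12 intestinal libraries, a set looked at after the values were seen, likeness to the members other than Ly6c1 was measured by Pearson r of log2(TPM + 1), as a description without a test; the 12 libraries share the contrast between sorts. Ly6g was most like Trpv3 (0.986), an ion channel of skin and gut epithelium, Ppp1r3b (0.983), Cyp2d12 (0.982), Fhl1 (0.982) and Saa1 (0.979), an acute phase protein. Ly6c2 was most like S100a4 (0.976), Oosp1 (0.957), Prg2 (0.956), Fut1 (0.9495) and Ly6k (0.948). Ly6a was most like St6gal1 (0.965), a sialyltransferase, and Ly6e most like Nxpe3 (0.983). Ly6d was most like Lax1 (0.972), Slamf7 (0.969), Slpi (0.966) and Pou2af1 (0.962), a coactivator of B and plasma cells.

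Lypd8, a family gene of gut epithelium that is no antigen of these gates, had mean levels of 3879 TPM in all intestinal cells and 4097 in the combined sort, against 2247 in the G and 1827 in the M sort, differences that did not pass the test. Its mean was at most 5.48 in any group of marrow or spleen.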
